A study of Mus musculus with 4 samples.

Results

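The PDGF ligand genes Pdgfa, Pdgfb, Pdgfc and Pdgfd and the receptor genes Pdgfra and Pdgfrb, 6 of 31017 gene symbols, were followed through 4 single-cell RNA libraries of sorted mouse cells. The genes were chosen as a family, not by their values, and all 6 are described here, whatever their level. All cells came from C57BL/6 mice and are called vessel progenitor cells by the submitters, who give no genotype or treatment. The libraries are labelled lung P1, fat P1, lung P2 and fat P2, with 1 library each. Both gates excluded CD45, the leukocyte protein, and Ter119, a red cell antigen, and required Tie2, the angiopoietin receptor. The P1 gate took cells that were negative for PDGFRa and positive for CD31, with high CD105 and low Sca1. The P2 gate took cells that were positive for PDGFRa and negative for CD31, with low CD105 and high Sca1. Pdgfra was therefore used to sort the cells, and its difference between P1 and P2 is a check of the gate and not a result. The age, sex and number of mice are not given in the sources used here.

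PDGFs are secreted dimers that drive the division and migration of mesenchymal cells. PDGF-A and PDGF-B are cut inside the cell and can be released ready to bind, whereas PDGF-C and PDGF-D leave the cell with a CUB domain that proteases outside it must remove. PDGFRa, a receptor tyrosine kinase, binds chains A, B and C, and its relative PDGFRb binds B and D. In growing vessels, endothelial cells make PDGF-B and nearby pericytes and smooth muscle cells (mural cells) carry PDGFRb. In the lung, PDGF-A from the epithelium acts on PDGFRa-positive fibroblasts during the formation of alveoli, and in fat PDGFRa marks the stromal cells that include adipocyte progenitors.

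Promoter sequences are shown for the 4 members with an entry in the RefSeq promoter table, since Pdgfc, Pdgfd and Pdgfra carry the results on stromal cells below and Pdgfa differs most from them in base content. On GRCm38 with GENCODE vM21, Pdgfa lies at chr5:138976014-138997370, Pdgfb at chr15:79995874-80014977, Pdgfc at chr3:81036416-81214040, Pdgfd at chr9:6168584-6378850 and Pdgfra at chr5:75152292-75198215. RefSeq promoters on GRCm38.p6 were found for Pdgfa, Pdgfc, Pdgfd and Pdgfra. Each line gives the 250 bases before a transcript start, 5′ to 3′ on the strand of the gene, and capitals mark matches on either strand to 4 short motifs, which are the TATA box letters TATAAA, the GC box letters GGGCGG, the box named for its letters CCAAT, and the AP-1 element TGANTCA. The Pdgfa window is chr5:138994945-138995194 on the minus strand and belongs to the more upstream of the 2 starts listed. The Pdgfc window is chr3:81036166-81036415, the Pdgfd window chr9:6168236-6168485 and the Pdgfra window chr5:75152001-75152250, all 3 on the plus strand.
Pdgfa: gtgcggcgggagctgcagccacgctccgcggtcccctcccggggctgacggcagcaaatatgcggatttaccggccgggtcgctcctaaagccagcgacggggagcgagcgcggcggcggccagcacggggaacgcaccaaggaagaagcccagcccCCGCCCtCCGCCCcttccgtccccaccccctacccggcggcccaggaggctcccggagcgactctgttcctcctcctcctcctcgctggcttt
Pdgfc: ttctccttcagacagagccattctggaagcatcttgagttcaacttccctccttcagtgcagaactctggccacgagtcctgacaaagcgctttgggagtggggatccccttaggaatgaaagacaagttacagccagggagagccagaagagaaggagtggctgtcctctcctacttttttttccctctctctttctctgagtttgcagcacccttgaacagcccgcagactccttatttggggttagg
Pdgfd: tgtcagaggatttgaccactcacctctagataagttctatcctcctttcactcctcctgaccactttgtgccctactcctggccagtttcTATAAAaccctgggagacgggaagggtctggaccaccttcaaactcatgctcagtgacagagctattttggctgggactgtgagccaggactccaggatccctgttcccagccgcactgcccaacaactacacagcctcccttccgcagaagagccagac
Pdgfra: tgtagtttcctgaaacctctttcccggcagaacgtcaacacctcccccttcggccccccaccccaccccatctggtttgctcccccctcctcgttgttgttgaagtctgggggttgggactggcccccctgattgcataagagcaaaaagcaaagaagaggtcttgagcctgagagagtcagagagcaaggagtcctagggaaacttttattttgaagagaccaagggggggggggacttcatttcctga
The Pdgfa window held 72.4% G and C with 28 CG steps, against a median of 52.4% and 6 CG steps over 32851 RefSeq promoters. Pdgfc had 50.8% with 3 CG steps, Pdgfd 53.6% with 3 and Pdgfra 54.4% with 4. GGGCGG was found on the minus strand at 2 places in the Pdgfa window, which were bases -93 to -88 and -86 to -81, and 32.7% of promoters held at least 1. TATAAA was found in the Pdgfd window at bases -160 to -155, and 12.4% of promoters held it. CCAAT, in 33.8% of promoters, and TGANTCA, in 6.75%, were not found in these 4 windows. Reads came from the 3′ ends of transcripts, so that the start used in these cells was not measured.

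After filtering for at least 1000 UMIs (unique molecule counts), at least 500 genes and at most 10% mitochondrial UMIs, 652 cells were kept for labelled lung P1, 1948 for labelled fat P1, 1436 for lung P2 and 7898 for fat P2. They held 1118642, 6510236, 3880015 and 43599072 UMIs in that order, with medians of 1561, 2964, 2150 and 5151.5 UMIs per cell. At most 1 kept cell barcode was shared between any pair of libraries. The P1 libraries carried the endothelial list (12 of 12 genes at 50 CPM, counts per 1000000 UMIs, in each) and the P2 libraries the fibroblast list (10 of 10 in each). The tissue labels of the P1 libraries went against the summed tissue genes. In labelled lung P1 and labelled fat P1, 6 fat genes summed to 13357 and 434 CPM, and 5 lung genes to 15.2 and 1782 CPM. Fabp4, a fatty acid binding protein of fat vessels, stood at 12379 CPM in labelled lung P1 and 94.2 CPM in labelled fat P1, whereas Foxf1, a lung vessel transcription factor, stood at 3.58 and 716 CPM. On the fat list Lpl went with the labels, at 133 and 338 CPM, and Hoxc8 and Hoxc9 had at most 1 UMI in either library. P1 libraries are therefore called by their labels, and the calls of the 6 genes between P1 and P2 are also given with the P1 libraries exchanged. RNA of the gate gene for Sca1, Ly6a, was at 1750 CPM in labelled lung P1 and 205 CPM in lung P2. It was at 2423 and 1921 CPM in labelled fat P1 and fat P2, and under both labels the order was opposite to the gate. With the P1 libraries exchanged, labelled fat P1 stood above lung P2, whereas labelled lung P1 stood below fat P2, the order of the gate. Cells of labelled lung P1 differed from each other hardly more than random draws from 1 common pool of RNA. Their variance over that expectation had a median of 1.04 over 1557 genes at 100 CPM or more, and 24 of these genes exceeded 2. The numbers above 2 were 318 of 2005 genes in labelled fat P1, 412 of 1703 in lung P2 and 301 of 1504 in fat P2. For the 6 PDGF genes the ratio ran from 0.967 to 1.04 in labelled lung P1, so that nothing below is read from differences between its cells.

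With 1 library per group no test was possible. Differences are log2 ratios after adding 10 CPM, and a gene was called at a 4-fold difference or more where 1 of the 2 libraries reached 50 CPM. Intervals are exact 95% intervals (Poisson for CPM and folds, Clopper-Pearson for shares) and cover counting error only. Of the 6, 3 were called between P1 and P2, among them the gate gene Pdgfra, whose difference was set by the sort. In labelled lung P1 over lung P2, Pdgfb was called higher, where 8.45% of 4791 genes were, and Pdgfra and Pdgfrb were called lower, where 11.8% were. The same 3 genes were called in the same directions in labelled fat P1 over fat P2, where 12.4% of 4727 genes were higher and 10.1% lower. In lung P2 over fat P2, Pdgfa was called higher, where 8.24% of 4323 genes were, and none of the 6 was called lower, where 4.79% were. In labelled lung P1 over labelled fat P1 none of the 6 was called, where 5.28% of 4605 genes were higher and 5.71% lower. With the P1 libraries exchanged, Pdgfb remained higher and Pdgfra and Pdgfrb lower in both comparisons of P1 with P2, with 8.90% of 4853 genes higher and 10.3% lower in labelled fat P1 over lung P2, and 9.97% of 4282 higher and 9.46% lower in labelled lung P1 over fat P2.

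**Figure D1:**
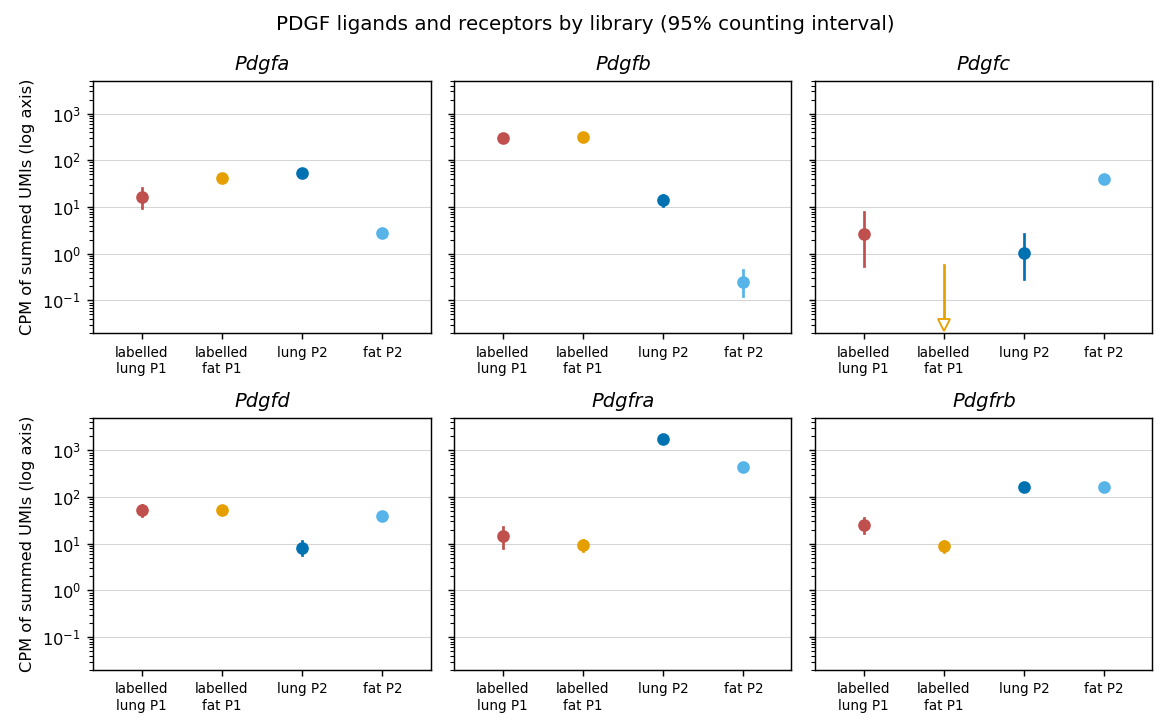
Levels of the 6 genes in each library. Points are CPM of summed UMIs on a log axis, lines are exact 95% Poisson intervals, and the open triangle marks 0 counts. Pdgfb stood at 299 and 318 CPM in the P1 libraries, against 14.2 CPM in lung P2 and 0.252 CPM in fat P2, and the receptors were higher in P2.

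Pdgfb, the chain that endothelial cells use to attract mural cells, was a gene of the P1 libraries. It stood at 299 CPM (267 to 332) in labelled lung P1 and 318 CPM (304 to 332) in labelled fat P1. In P2 it stood at 14.2 CPM (10.7 to 18.5) in lung and 0.252 CPM (0.126 to 0.451) in fat, where 11 UMIs lay in 7 cells. The intervals of the P1 libraries overlapped each other and lay above both P2 libraries. The log2 ratio was 3.67 in labelled lung P1 over lung P2, a fold of 21.1 (15.8 to 28.6). It was 4.999 in labelled fat P1 over fat P2, a fold of 1260 (703 to 2527). After each cell was thinned to 2000 UMIs, Pdgfb was found in 45.7% of 164 cells of labelled lung P1 and 42.8% of 1491 cells of labelled fat P1, against 1.29% of 778 cells in lung P2 and 0.0417% of 7191 cells in fat P2. Unthinned shares were 38.3%, 55.7%, 1.46% and 0.0886%.

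Most of the few Pdgfb UMIs in P2 came from a small number of endothelial-like cells. In lung P2, 26 endothelial-like cells held 80.0% of them and stood at 207 CPM (150 to 277), against 0.401 CPM, or 1 UMI, in 991 fibroblast-like cells. A further 16.4% lay in 19 epithelial-like cells. In fat P2, 22 endothelial-like cells held 9 of the 11 UMIs, and 7521 fibroblast-like cells held 0, which allows up to 0.0431% of the thinned cells to have a UMI and sets no limit on cells with lower expression. These 22 cells also carried 10 of 10 fibroblast genes at 100 CPM or more, so that they stood apart by their endothelial genes and not by a lack of stromal ones. Between the endothelial-like cells of labelled fat P1 and the fibroblast-like cells of fat P2 the log2 ratio was 5.12.

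Within labelled fat P1, Pdgfb varied among the 7 endothelial-like clusters. Its highest level, 481 CPM (448 to 515), was in the cluster led by Fibin and Ednrb, which mark lung capillary cells known as aerocytes. The cluster led by Cxcr4 and Esm1 stood at 234 CPM (205 to 267). The lowest levels were 128 CPM (79.2 to 195) in the cluster with Gja5, an arterial gap junction gene, and 144 CPM (96.2 to 206) in the cluster led by Slc6a2 with the venous gene Vwf. The interval of the aerocyte cluster lay above those of these 3, and the intervals of the Gja5 and Slc6a2 clusters overlapped.

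**Figure D2:**
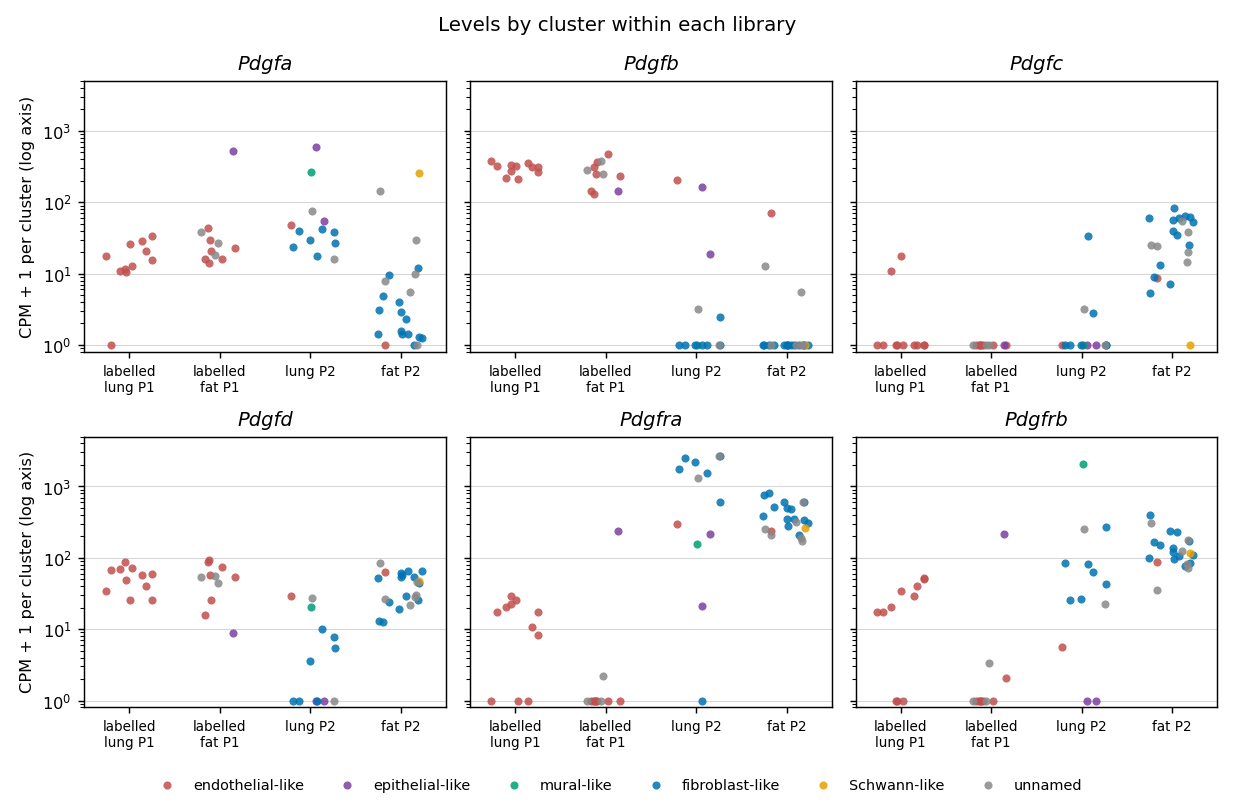
Levels in each cluster of each library. Each point is 1 cluster, the axis gives CPM + 1 on a log scale, so that 0 stands at 1, and colours give the class named from markers. Endothelial-like clusters carry Pdgfb in all 4 libraries, Pdgfc is spread over fat P2, and the 1 mural-like cluster, of lung P2, is highest for Pdgfrb at 2069 CPM.

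Pdgfd, whose product must lose its CUB domain and then binds PDGFRb, was found in endothelial cells and in fat stroma. Its level was 51.8 CPM (39.4 to 67.0) in labelled lung P1, 54.1 CPM (48.6 to 60.0) in labelled fat P1, 8.25 CPM (5.64 to 11.6) in lung P2 and 39.9 CPM (38.0 to 41.8) in fat P2. Lung P2 stood apart as the low library, and the intervals of the P1 libraries overlapped. The log2 ratio was 1.76 in labelled lung P1 over lung P2, below the 4-fold line, 0.36 in labelled fat P1 over fat P2 and -1.45 in lung P2 over fat P2. The first passed 4-fold with a pseudocount of 1 CPM (2.51) and between endothelial-like and fibroblast-like cells (2.10). At 2000 UMIs per cell the shares of cells were 10.98%, 10.5%, 1.54% and 7.51% in the same order, and unthinned they were 8.44%, 15.6%, 2.09% and 18.4%. Among the endothelial-like clusters of labelled fat P1 Pdgfd ran from 14.9 CPM, 3 UMIs, in the Slc6a2 and Vwf cluster to 93.0 CPM, and the Gja5 cluster, lowest for Pdgfb, stood at 85.3 CPM. Cells of that library with both Pdgfb and Pdgfd numbered 77, against 67.2 expected from the separate shares. The ratio was 1.15, and 1.13 among its endothelial-like cells alone. The counting interval of that last count, 44.0 to 74.98, held the 51.3 expected.

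Pdgfa, the ligand for PDGFRa dimers, was low in fat P2, and its highest levels were in minor cell classes. It stood at 16.1 CPM (9.54 to 25.4) in labelled lung P1, 41.5 CPM (36.7 to 46.7) in labelled fat P1, 53.1 CPM (46.1 to 60.9) in lung P2 and 2.84 CPM (2.37 to 3.39) in fat P2. The intervals of labelled fat P1 and lung P2 overlapped, and fat P2 was lowest. Lung P2 over fat P2 gave a log2 ratio of 2.30, a fold of 18.7 (14.9 to 23.5). The ratio of P1 over P2 was -1.27 for the lung labels and 2.003 for the fat labels, and neither was called, the first being under 4-fold and the second under 50 CPM. With the P1 libraries exchanged these became -0.29 in labelled fat P1 over lung P2 and 1.02 in labelled lung P1 over fat P2. Shares of cells at 2000 UMIs were 3.05%, 5.70%, 8.23% and 0.501%, and unthinned they were 2.76%, 7.70%, 10.1% and 1.33%.

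In labelled fat P1, 39 epithelial-like cells, led by the alveolar type 1 gene Ager and 2.002% of the library, held 48.9% of all Pdgfa UMIs at 522 CPM (437 to 619). The 1440 endothelial-like cells stood at 20.3 CPM (16.4 to 24.9). Those 39 cells were not uniform, and split without overlap by the PDGF receptors. In 24 cells with no receptor UMI Ager stood at 15946 CPM, and these carried Pdgfa at 694 CPM (578 to 827) in 21 of the 24. In 9 cells Pdgfra was present at 1373 CPM together with Inmt, a lung fibroblast gene, at 7028 CPM, and Pdgfa was found in 1 of the 9. In the remaining 6 cells Pdgfrb was present at 1842 CPM together with the mural genes Cox4i2 at 2947 CPM and Notch3 at 1306 CPM, and Pdgfa was found in 2 of the 6. No cell held both receptors. This split was made on the receptor counts themselves and after their values were seen, and it is a description of 39 cells.

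In lung P2, too, Pdgfa was highest in minor classes. An Ager-led cluster of 8 cells had 588 CPM of Pdgfa (394 to 844), 75 mural-like cells had 268 CPM (193 to 363) and 991 fibroblast-like cells had 32.5 CPM (25.8 to 40.4). The mural-like cells held 20.4% of the library's Pdgfa UMIs, the epithelial-like cells 15.5% and the fibroblast-like cells 39.3%. In fibroblast-like cells alone, lung P2 over fat P2 gave a log2 ratio of 1.81, below the 4-fold line. In fat P2, where fibroblast-like cells stood at 2.10 CPM (1.68 to 2.59), the higher levels lay in 13 Schwann-like cells at 258 CPM (129 to 461), from 11 UMIs, and in an unnamed cluster of 22 cells led by Acta2 and Myh11, both genes of smooth muscle, at 143 CPM (73.9 to 250), from 12 UMIs. Epithelial marker RNA was also found outside the epithelial-like cells of lung P2, where the 8 listed genes summed to 1057 CPM in fibroblast-like and 1137 CPM in mural-like cells. Of the 8, 6 were at 0 in the mural-like cells. The part of stray RNA in the Pdgfa levels was not tested.

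Pdgfc, the other ligand that is released with a CUB domain and binds PDGFRa, was a gene of fat P2. It had 3 UMIs in labelled lung P1, 2.68 CPM (0.553 to 7.84), 0 UMIs in labelled fat P1, which allows up to 0.461 CPM at 3 counts, 4 UMIs in lung P2, 1.03 CPM (0.281 to 2.64), and 1773 UMIs in fat P2, 40.7 CPM (38.8 to 42.6). No interval of the other 3 libraries reached that of fat P2. Lung P2 over fat P2 gave a log2 ratio of -2.20, and the level was 39.4-fold lower (15.4 to 145). Labelled fat P1 was at least 88.2-fold lower than fat P2, with its 0 UMIs set at 3 counts for the library. Pdgfc never reached 50 CPM in a library and so was outside the 4-fold calls. At 2000 UMIs it was found in 7.38% of fat P2 cells (6.79 to 8.01), in 0.257% of lung P2 cells and in none of 164 and 1491 cells of labelled lung P1 and labelled fat P1, which allows up to 1.83% and 0.201% of cells to have a UMI at this depth. The unthinned share in fat P2 was 17.8%. Fibroblast-like cells held 97.3% of its UMIs there.

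Pdgfra, the gate gene, was high in both P2 libraries. It stood at 14.3 CPM (8.18 to 23.2) in labelled lung P1, 9.22 CPM (7.03 to 11.9) in labelled fat P1, 1752 CPM (1711 to 1794) in lung P2 and 447 CPM (441 to 453) in fat P2. The order P2 above P1 follows the gate. Both P2 libraries were sorted on this receptor, and where the gate was drawn in each tissue is not given in the sources used here. Lung P2 over fat P2 gave a log2 ratio of 1.95 and a fold of 3.92 (3.81 to 4.03), just under the 4-fold line. Between fibroblast-like cells alone, at 1958 CPM in lung P2 and 454 CPM in fat P2, the log2 ratio was 2.08. At 2000 UMIs 83.0% of lung P2 cells and 53.6% of fat P2 cells had a UMI, against 3.66% in labelled lung P1 and 0.402% in labelled fat P1. Unthinned, these were 84.6%, 77.2%, 2.45% and 0.513%. In labelled fat P1 none of 1440 endothelial-like cells had a UMI, and 98.3% of the 60 UMIs lay in the cluster of 39 epithelial-like cells. Within that cluster they lay in the 9 cells described above, which stood at 7028 CPM of Inmt and 163 CPM of Ager. In lung P2, 11 of 26 endothelial-like cells had Pdgfra, at 296 CPM (227 to 379) and with a median depth of 4435.5 UMIs, against 2042 UMIs in fibroblast-like cells. At 2000 UMIs per cell Pdgfra was found in 441 of 505 fibroblast-like, 6 of 20 endothelial-like and 4 of 27 mural-like cells. The intervals of the endothelial-like share (11.9% to 54.3%) and the mural-like share (4.19% to 33.7%) overlapped. These endothelial-like cells came through a gate positive for PDGFRa and carried 3 of 10 fibroblast genes at 100 CPM or more. They are therefore no measure of background, and the part of stray RNA in the mural-like Pdgfra level was not tested. In labelled lung P1 the receptor RNA came with other stromal RNA, the 10 fibroblast genes summing to 1094 CPM and the 10 mural genes to 611 CPM, against 48.5 and 133 CPM in labelled fat P1. The part of this in its Pdgfra and Pdgfrb levels was not tested.

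Pdgfrb, the receptor of mural cells and of many fibroblasts, was at 25.03 CPM (16.6 to 36.2) in labelled lung P1, 8.91 CPM (6.77 to 11.5) in labelled fat P1, 162 CPM (150 to 176) in lung P2 and 163 CPM (159 to 167) in fat P2. The P2 libraries lay above the P1 libraries without overlap, and their own intervals overlapped. The log2 ratio was -2.30 for labelled lung P1 over lung P2, -3.19 for labelled fat P1 over fat P2 and -0.00 for lung P2 over fat P2, where the ratio of the levels was 0.997 (0.918 to 1.08). The equal sums came from different cells. In lung P2, 75 mural-like cells, 5.22% of the library, held 51.4% of the UMIs at 2069 CPM (1850 to 2307), and fibroblast-like cells stood at 72.6 CPM (62.4 to 84.0). In fat P2, fibroblast-like cells held 97.6% at 165 CPM (162 to 169). Between fibroblast-like cells alone, lung P2 over fat P2 gave a log2 ratio of -1.09. That class leaves out 325 unnamed cells of lung P2, which carried Pdgfrb at 136 CPM (113 to 162) and Pdgfra at 1989 CPM. With only mural-like, epithelial-like and other-type clusters left out, a choice made after the data were seen, the ratio was -0.80. At 2000 UMIs per cell Pdgfrb was found in 15.8% of lung P2 cells and 25.4% of fat P2 cells, against 5.49% and 0.469% of labelled lung P1 and labelled fat P1 cells, with unthinned shares of 18.5%, 48.8%, 4.14% and 0.462%. In labelled fat P1, 1440 endothelial-like cells held 1 Pdgfrb UMI.

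In lung P2 the receptors divided the clusters. Over the 9 clusters with at least 30 cells, which share 1 library, log2 levels of Pdgfra and Pdgfrb ran in opposite directions, with a Pearson r of -0.96 and a Spearman rho of -0.88, while Pdgfa and Pdgfrb had r of 0.89 and rho of 0.60. Without the mural-like cluster, a choice made after the values were seen, the r values over 8 clusters were -0.88 and 0.63. The mural-like cluster was at one end, with 2069 CPM of Pdgfrb and 153 CPM of Pdgfra (98.2 to 228), which is below the 296 CPM of the endothelial-like cells. At the other end a fibroblast-like cluster with Ces1d and Bmper among its leading genes had 2696 CPM of Pdgfra (2575 to 2822) and 42.3 CPM of Pdgfrb (28.3 to 60.7). In between, the cluster led by Scara5 with Dcn and Lum had 607 CPM of Pdgfra (522 to 702) and 273 CPM of Pdgfrb (218 to 339), and an unnamed cluster led by Adh7 and Hmcn2 had 1306 CPM (1203 to 1415) and 251 CPM (207 to 302). B cell genes were also among the leading genes of the Scara5 cluster, and their part in its levels was not tested. A fibroblast-like cluster of 20 cells led by Hhip had no Pdgfra UMI among 61046 UMIs.

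**Figure D3:**
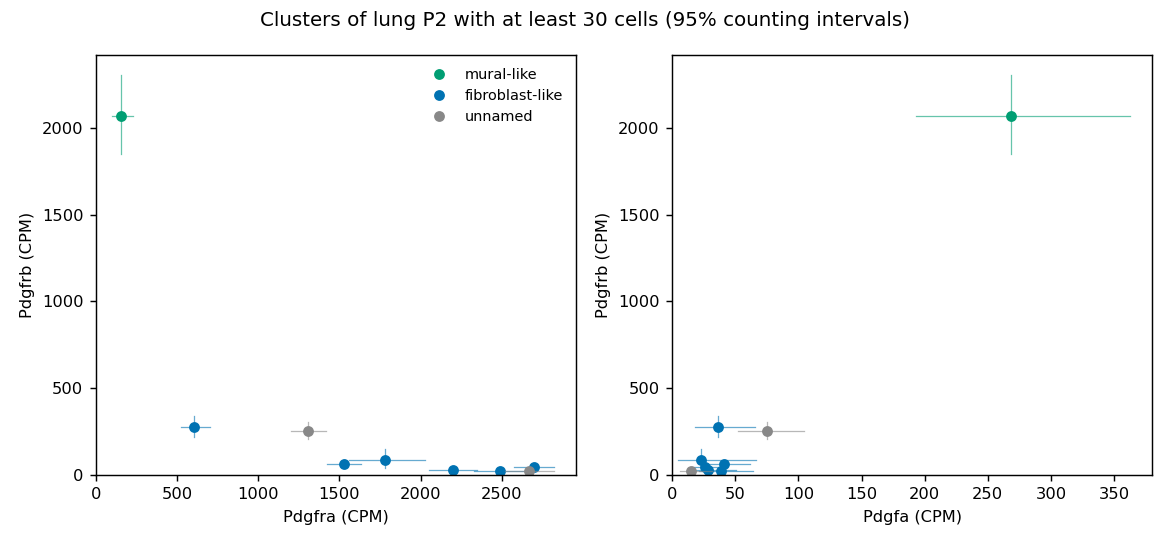
Clusters of lung P2 with at least 30 cells. Each point is 1 cluster, axes give CPM from 0 and lines are exact 95% Poisson intervals. In both panels the mural-like cluster stands alone at 2069 CPM of Pdgfrb, with 153 CPM of Pdgfra and 268 CPM of Pdgfa, and the other clusters lie at 273 CPM of Pdgfrb or below.

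In fat P2 the CUB-domain ligands varied together across clusters and tended to be lower where the receptors were higher. Over its 19 clusters of at least 30 cells Pdgfc and Pdgfd had a Pearson r of 0.85 and Pdgfra and Pdgfrb of 0.84, while the r of each of these ligands with each receptor lay between -0.45 and -0.41. These points share 1 library, differ in depth and include 5 unnamed clusters, and the r values describe them alone. Pdgfc ran from 4.35 CPM in the fibroblast-like cluster led by Igfbp2 to 82.9 CPM (74.95 to 91.5) in the one led by Dmkn and Krtdap. The Igfbp2 cluster was highest for Pdgfrb at 399 CPM (379 to 419) and had 751 CPM of Pdgfra (724 to 779) and 12.0 CPM of Pdgfd. The Dmkn cluster had 94.2 CPM of Pdgfrb (85.7 to 103), 282 CPM of Pdgfra (267 to 298) and 55.6 CPM of Pdgfd. The cluster with Pi16 and Dpp4 among its leading genes, markers of interstitial adipose progenitors, had 59.1 CPM of Pdgfc and 64.9 CPM of Pdgfd. The cluster led by Nrep and Col4a1 had 6.07 CPM of Pdgfc, 18.4 CPM of Pdgfd, 608 CPM of Pdgfra and 239 CPM of Pdgfrb, and the one led by Apod had the highest Pdgfra at 800 CPM (724 to 881). None of the 19 clusters lacked the RNA of either receptor, the lowest Pdgfrb being 34.8 CPM.

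**Figure D4:**
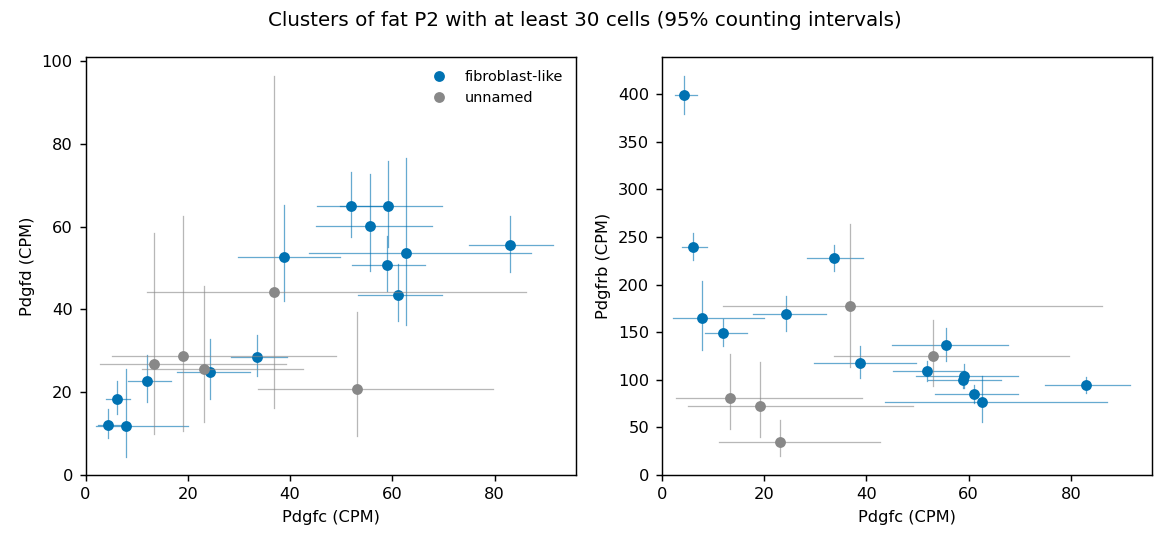
Clusters of fat P2 with at least 30 cells. Each point is 1 cluster, axes give CPM from 0 and lines are exact 95% Poisson intervals. Pdgfc and Pdgfd are high in the same clusters on the left, and on the right the cluster with 399 CPM of Pdgfrb has 4.35 CPM of Pdgfc, whereas the one with 82.9 CPM of Pdgfc has 94.2 CPM of Pdgfrb.

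Cells with a ligand were most frequent in the P1 libraries and cells with a receptor in the P2 libraries. At 2000 UMIs per cell 53.0% of cells had any of the 4 ligands in labelled lung P1, 51.2% in labelled fat P1, 10.9% in lung P2 and 14.6% in fat P2. A receptor was found in 9.15%, 0.872%, 87.9% and 63.8% in the same order. The gate gene Pdgfra counts as a receptor here, so that this side of the contrast follows the sort. Pdgfrb, which was not a gate gene, was found in 5.49%, 0.469%, 15.8% and 25.4%. Labelled lung P1, whose cells varied like draws from 1 pool, is left out of the counts per cell that follow. Cells with ligand and receptor together numbered 4 in labelled fat P1 against 6.66 expected from the separate shares, 63 against 74.7 in lung P2 and 588 against 671 in fat P2. Both receptors were seen in 10.9% of lung P2 cells and 15.1% of fat P2 cells, and in none of 1491 labelled fat P1 cells. In lung P2 69.1% of cells with Pdgfrb also had Pdgfra, against 85.6% of cells without it. Among its fibroblast-like cells alone the receptors were together in 51 cells (38.0 to 67.1), an interval that held the 56.8 expected.

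Joint counts at this depth were also made for the fibroblast-like cells of fat P2, pooled over their 14 clusters. The levels of these genes differed between the clusters, as given above, and no joint counts were made within single clusters. Whether ligands and receptors were opposed between cells of the same cluster was therefore not tested. Pdgfc and Pdgfrb were together in 95 cells (76.9 to 116) against 134 expected, and Pdgfd and Pdgfrb in 111 (91.3 to 134) against 136. Pdgfc and Pdgfra were together in 244 cells (214 to 277) against 284 expected, whereas the interval for Pdgfd and Pdgfra, 258 cells (227 to 291), held the 288 expected. Like genes were found together more often, with 56 cells (42.3 to 72.7) for Pdgfc and Pdgfd against 39.5 expected, and 1076 (1013 to 1142) for Pdgfra and Pdgfrb against 978. Without thinning, over all fat P2 cells, observed over expected was 1.01 for Pdgfc and Pdgfra and 0.951 for Pdgfc and Pdgfrb. It was 1.03 for Pdgfd and Pdgfra and 0.999 for Pdgfd and Pdgfrb. The intervals of all 4 pairs held the expected count, with 652 cells (603 to 704) against 685 for Pdgfc and Pdgfrb. At 1000 UMIs per cell, over all fat P2 cells, the intervals of these 4 pairs also held the expected count. For Pdgfc and Pdgfrb it was 39 cells (27.7 to 53.3) against 49.0 expected. The interval for Pdgfc and Pdgfd, 14 cells (7.65 to 23.5), held the 12.7 expected. In lung P2 Pdgfa and Pdgfrb were together in 21 cells against 10.1 expected. Among its fibroblast-like cells alone the count was 6 (2.20 to 13.1) against 3.86.

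**Figure D5:**
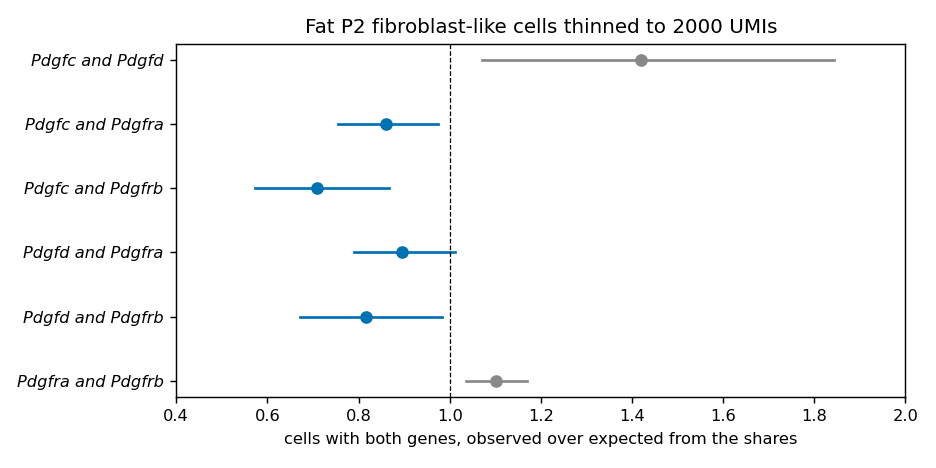
Cells with both genes of a pair among 6957 fibroblast-like cells of fat P2, pooled over clusters and each thinned to 2000 UMIs. Points give the observed count over the count expected from the separate shares, lines exact 95% Poisson intervals, and the dashed line a ratio of 1. The points of ligand and receptor pairs, in blue, lie below 1, where the interval of Pdgfd and Pdgfra crosses the line, and the like pairs, in grey, lie above it.

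For 5 of the 6 members, the genes with the most similar pattern over 49 clusters of at least 30 cells from all 4 libraries were found by Pearson r of log2(CPM + 10) among 8430 genes. For Pdgfb they were Egfl7, Pecam1, Cdh5, Ushbp1 and Esam, with r from 0.985 to 0.989, and 4 of the 5 are on the endothelial marker list. For Pdgfra they were Mrc2, Plxdc2, Ms4a4d, Ogn and Lrp1, from 0.964 to 0.979, and for Pdgfc they were Dact2, Aldh1a3, Il18, Duoxa1 and Sbsn, from 0.937 to 0.953. The likeness was lower for Pdgfrb, with Fam129a, Ptpn13, Pcdh18, C1s1 and Angptl2 from 0.831 to 0.860, and for Pdgfd, with Cpne8, Ly6c1, Ly6a, Gngt2 and Ace from 0.776 to 0.821. The clusters share libraries and are not independent points. They include 10 of labelled lung P1, whose cells varied like draws from 1 pool. They also span P1 and P2, which were sorted on PDGFRa and CD31. The likeness of Pdgfra and of Pdgfb to all the genes listed for them, the CD31 gene Pecam1 among these, cannot be told apart from the gate.

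Of 42 genes on 5 lists of the PDGF pathway, 26 were measured at 50 CPM in labelled lung P1 over lung P2, with 4 called higher and 4 lower, where 8.45% and 11.8% of all genes were. Their median log2 ratio was -0.17 against -0.12 over all 4791 genes. In labelled fat P1 over fat P2, 30 were measured, 1 was called higher and 9 lower, where 12.4% and 10.1% of all genes were, with a median of -0.33 against 0.38. In lung P2 over fat P2, 29 were measured, 2 were called higher and 6 lower, where 8.24% and 4.79% of all genes were, with a median of -0.06 against 0.15. In labelled lung P1 over labelled fat P1, 24 were measured, 4 were called higher and none lower, where 5.28% and 5.71% of all genes were, with a median of -0.46 against -0.31.

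Of 5 ligand processing genes, 4 were measured in lung P2 over fat P2, none was called higher and 2 were called lower, where 4.79% of all genes were lower. The same counts held in labelled fat P1 over fat P2, where 10.1% were lower, and in labelled lung P1 over lung P2 none of 3 measured was called. The 2 called genes were Plat and Plau. Plat, tissue plasminogen activator, which activates PDGF-C, stood at 93.0 CPM in lung P2 and 557 CPM in fat P2, a log2 ratio of -2.46, and at 36.9 CPM in labelled fat P1. Plau, urokinase, which activates PDGF-D, stood at 0.773 CPM, 3 UMIs, in lung P2 and 85.1 CPM in fat P2. Of 5 binding proteins and coreceptors, 4 were measured in labelled lung P1 over lung P2. None was called higher and 2 lower, where 8.45% and 11.8% of all genes were. In labelled fat P1 over fat P2, 1 of 4 was called higher and 2 lower, where 12.4% and 10.1% were. In lung P2 over fat P2, 2 of 4 were called higher and none lower, where 8.24% and 4.79% were. Lrp1, an endocytic receptor that associates with PDGFRb, was lower in P1. It stood at 17.0 CPM in labelled lung P1 against 999 CPM in lung P2, and at 5.07 CPM in labelled fat P1 against 692 CPM in fat P2. Nrp1, a coreceptor best known for VEGF, was higher in labelled fat P1 than in fat P2, at 1294 and 94.3 CPM. Sparc, a matrix protein that binds PDGF-B, stood at 973 CPM in labelled fat P1 and 5714 CPM in fat P2. Of 15 genes of receptor signalling, 1 was called in any of the 4 labelled comparisons. It was Pik3r1, a PI3-kinase subunit, at 32.2 CPM in labelled lung P1 and 337 CPM in lung P2, where 8 were measured. Of 10 negative regulators, 1 was called, the ubiquitin ligase gene Cblb, at 19.7 and 203 CPM in the same libraries, where 6 were measured. In that comparison 11.8% of all genes were lower. With the P1 libraries exchanged, no gene of these 2 lists was called in either comparison of P1 with P2. In labelled fat P1 over lung P2, 8 and 6 were measured, and 8.90% of all genes were higher and 10.3% lower. In labelled lung P1 over fat P2, 7 and 6 were measured, and 9.97% were higher and 9.46% lower.

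Immediate response genes, which PDGF and many other stimuli induce within minutes, were higher in P1 than P2 under the lung labels and lower under the fat labels. This rests on P1 labels that the summed tissue genes contradict. With the P1 libraries exchanged the medians were below 0 in both comparisons. They were -2.01 in labelled fat P1 over lung P2 and -0.89 in labelled lung P1 over fat P2. In the first, 3 of 5 measured were called lower, where 10.3% of all genes were, and in the second none of 6 was called. In labelled lung P1 over lung P2, 4 of 5 measured were called higher, where 8.45% of all genes were, with a median log2 ratio of 2.22. In labelled fat P1 over fat P2, 5 of 6 were called lower, where 10.1% of all genes were, with a median of -4.39. Fos stood at 3721 CPM in labelled lung P1, 27.0 CPM in labelled fat P1, 689 CPM in lung P2 and 5906 CPM in fat P2. Labelled lung P1 and fat P2 were the high libraries for Fos.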

How the data were processed

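Cells of 4 sorted populations were profiled with the 10x Genomics 3' kit v3.1, and the authors deposited UMI counts per gene and barcode made with Cell Ranger 3.1.0 on mm10, per the submitters' processing notes. The counts are not normalized, and each group has 1 library. Barcodes with at least 1000 UMIs, 500 genes and at most 10% mt- UMIs were kept, and all kept cells were used without removing doublets. Levels are CPM of summed counts. For shares, each cell was thinned to 2000 UMIs. Cells were clustered per library without the 6 genes (scanpy 1.11.5, Leiden resolution 1, 2000 variable genes, 30 components, 15 neighbours), and a cluster was named where at least 3 and at least 70% of a marker list reached 100 CPM and its 10 leading genes did not favour another class, a rule chosen after cluster counts were seen. Of each pathway list, up to 4 genes past 4-fold with the largest ratio per comparison were eligible for naming, and 5 most similar genes per member, which for Pdgfa are not reported here. The members and lists were chosen with earlier results of these data known. Alternatives were TMM scaling (edgeR 4.0.16), other pseudocounts, cell filters, removal of likely doublets, other cell choices and exchanged P1 libraries.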

Additional observations from a re-analysis of the deposited data

Results flagged for a closer look

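Pdgfa went in opposite directions in the pairs of libraries with the same tissue label. Its log2 ratio was -1.27 in labelled lung P1 over lung P2 and 2.003 in labelled fat P1 over fat P2. The difference between these ratios was not tested, since each group has 1 library. With the P1 libraries exchanged the ratios were -0.29 in labelled fat P1 over lung P2 and 1.02 in labelled lung P1 over fat P2.

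Immediate response genes did the same. Their median log2 ratio was 2.22 in labelled lung P1 over lung P2 and -4.39 in labelled fat P1 over fat P2, and this difference was not tested either. With the P1 libraries exchanged both medians were below 0, at -2.01 in labelled fat P1 over lung P2 and -0.89 in labelled lung P1 over fat P2.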

How the results depend on the processing

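No paired analysis was possible because each group has 1 library, and no library could be left out. Of 50 counts of members past 4-fold under the alternatives, 44 stayed within 1.5 times the main count. The members called could still change at an equal count. Between endothelial-like and fibroblast-like cells of the lung labels, Pdgfd gained the call (2.10) and Pdgfrb lost it. In lung P2 over fat P2, Pdgfra gained it and Pdgfa lost it between fibroblast-like cells (2.08 and 1.81) and without mural-like, epithelial-like and other-type clusters (2.11 and 1.86). In labelled fat P1 over fat P2 the count was 5 with no minimum level, against 3. In lung P2 over fat P2, where 1 member was called, the count was 0 with TMM scaling, 0 with a pseudocount of 50 CPM, 2 with the mean of per-cell CPM, 2 with no minimum level and 0 with epithelial-like clusters left out, an alternative added after the data were seen. The Pdgfa log2 ratio there was 2.15 with TMM, 0.96 with a pseudocount of 50 CPM and 2.13 without epithelial-like clusters. No alternative reversed a call.

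The lower Pdgfrb of labelled lung P1 against lung P2 was not past 4-fold without mural-like, epithelial-like and other-type clusters (log2 ratio -1.51, added after the data were seen) or between endothelial-like and fibroblast-like cells (-1.24). With a pseudocount of 50 CPM Pdgfrb was not past 4-fold under either label, at -1.50 in labelled lung P1 over lung P2 and -1.85 in labelled fat P1 over fat P2. With a pseudocount of 1 CPM Pdgfd was past it in labelled lung P1 over lung P2 (2.51). In lung P2 over fat P2 the Pdgfrb ratio was -0.35 with TMM and 0.19 with the mean of per-cell CPM. TMM shifted the median log2 ratio of all genes by -0.34 in labelled fat P1 over fat P2 and by -0.32 in lung P2 over fat P2. The share of calls that were higher was 45.1% with TMM and 55.0% without it in labelled fat P1 over fat P2, and 48.1% and 63.2% in lung P2 over fat P2. Of the log2 ratios under alternatives, 87 moved beyond their counting interval and 189 did not. The depth of labelled lung P1, which left 164 cells at 2000 UMIs, limits its shares. At Leiden resolution 0.5, clusters of 557 and 300 cells in lung P2 and of 633 cells in labelled lung P1 were left unnamed. The fibroblast-like class of lung P2 was smaller there.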
